A study of Mus musculus with 10 samples.

Results

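SNARE proteins and the membrane fusion machinery were examined at the transcript level in mpkCCD cells with and without Camk2d. The genes were chosen by symbol as syntaxins, VAMPs, SNAP-25 family proteins, other SNAREs, SNARE regulators, the NSF and SNAP disassembly proteins and the subunits of the exocyst. Of the 41 genes listed, 40 had a row among the 55414 genes of the expression table. Vamp7 is not analysed here. mpkCCD cells are an immortalized line of the mouse cortical collecting duct (strain background C57BL/6). All 10 samples were grown on permeable supports and kept for 7 days with 0.1 nM dDAVP, an agonist of the V2 vasopressin receptor, so no sample shows the cells without dDAVP. The 5 Camk2d-intact samples came from 3 lines: the parental wild-type line (1 sample), intact clone 1 (2 samples) and intact clone 2 (2 samples), the clones having gone through the transfection and kept CAMK2D. The 5 Camk2d KO samples were 5 single-cell-derived CRISPR-Cas9 clones, KO 1 and KO 2 made with a guide to exon 8 and KO 3, KO 4 and KO 5 with a guide to exon 9. Each KO sample is therefore 1 clone, and a value that belongs to a clone cannot be told apart from one that belongs to its library. Below, intact samples are given in the order parental, clone 1 (both samples) and clone 2 (both samples), and KO clones in the order KO 1 to KO 5.

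SNAREs drive the fusion of vesicles with their target membranes. A vesicle SNARE such as a VAMP zippers with syntaxins and SNAP-25-type proteins on the target membrane, SM proteins such as the Stxbp (Munc18) family guide the assembly, and the ATPase NSF with its SNAP adaptors takes the spent complex apart. The exocyst is a tethering complex that holds secretory vesicles at the plasma membrane before SNAREs engage. In collecting duct principal cells this machinery is studied for the exocytosis of vesicles that carry the water channel aquaporin-2 (AQP2) to the apical membrane in response to vasopressin.

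Expression was given by the authors as TPM, a measure of transcript abundance, which divide the reads on a gene by its length and have the same sum in every sample. Levels of different genes can therefore be set side by side within a sample, but TPM keep no depth, so the counting error behind a value cannot be stated. In such bulk samples, fewer cells of a kind and less RNA per cell cannot be told apart. Camk2d was 132 ± 6.97 TPM in intact samples and 24.7 ± 3.65 TPM in KO clones (SD, n = 5 each), the highest KO clone (29.8) lying under the lowest intact sample (123). Among the principal cell markers, Aqp2 (3773 to 5502 TPM in intact samples), Avpr2 (222 to 252), Gata3 (240.4 to 258), Fxyd4 (633 to 849) and Cdh1 (874 to 975) were high, while Aqp3 was low (1.10 to 3.34) and Scnn1b (0.20 to 0.32) and Elf5 (0 to 0.11) were under 1 TPM. The summed level of the 11 principal cell markers was 6050 to 7982 TPM in intact samples and 3348 to 6260 TPM in KO clones, and its part in the results below was not tested. The sum moved mainly with Aqp2 (mean 4318 TPM in intact samples and 2485 in KO clones, limma adjusted p = 0.565). Of the other members, Avpr2 (235 and 204.9), Fxyd4 (706 and 586), Cdh1 (922 and 896), Scnn1g (19.4 and 15.6) and Scnn1b had a lower mean in KO clones, while Hsd11b2 (19.5 and 45.3), Gata3 (249.8 and 264), Scnn1a (168 and 181), Aqp3 (1.81 and 2.36) and Elf5 had a higher one, and none of the 10 tested passed an adjusted p of 0.05. The 7 intercalated cell markers summed to 26.9 to 34.1 TPM in intact samples and 26.8 to 56.4 TPM in KO clones, nearly all of it from Atp6v1b1 (23.6 to 30.7 and 21.8 to 49.3) and Aqp6 (1.88 to 3.49 and 0.64 to 7.11). The defining Foxi1 and Slc4a1 were at or under 0.04 TPM in every sample, and the part of this list in the results below was not tested. The 2 markers of the thick ascending limb were listed at 0, and the summed markers of proximal tubule (up to 0.20 TPM), fibroblasts (up to 0.61) and neurons (up to 1.04) were near 0, while the leukocyte list reached 26.8 TPM through Csf1r.

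Nearly the whole set was expressed in intact cells. Of the 40 genes with a row, 39 averaged at least 1 TPM in intact samples, 36 at least 10, 15 at least 50 and 7 at least 100. The order ran from Vamp8 (433 ± 13.7 TPM, SD, n = 5), the SNARE of late endosomes and of regulated secretion in epithelia, to Napb (3.92 ± 0.64 TPM), the SNAP adaptor known mainly from brain. Snap25, the neuronal SNARE of synaptic vesicle release, was listed at 0 in all 10 samples. The 4 genes of at least 200 TPM were Vamp8, Vti1b, Stxbp2 and Stx7. In this order 29 of 39 neighbouring pairs overlapped in their intact samples, so most neighbouring ranks are not separated. Among the 10 highest genes, the samples did not overlap at the steps from Vamp8 to Vti1b, from Vti1b to Stxbp2, from Stx5a to Snap47, from Snap47 to Napa, from Napa to Exoc7 and from Stxbp3 to Ykt6.

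**Figure D1:**
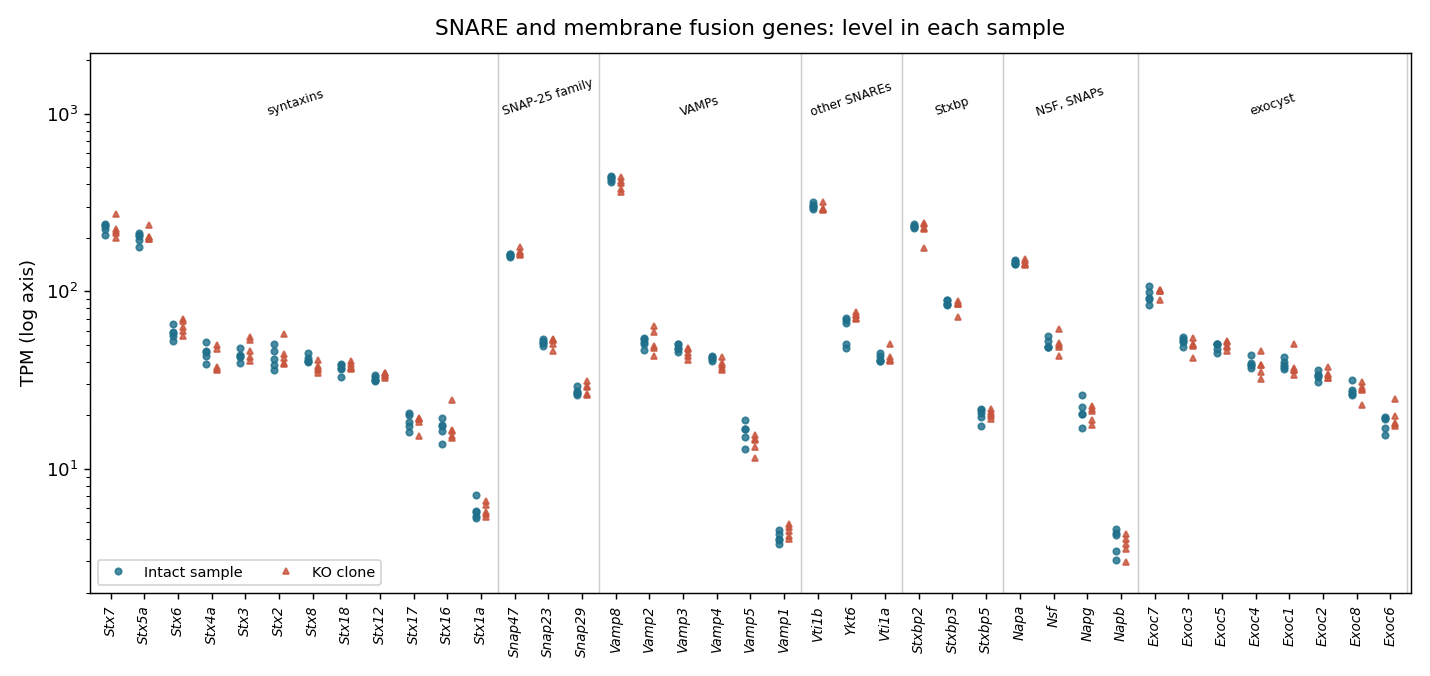
Level in TPM (log axis) of each of the 39 SNARE and membrane fusion genes above 0, in the 5 intact samples (circles) and 5 KO clones (triangles), grouped by family and ordered by intact mean. Vamp8 lies highest and Napb lowest, and the circles and triangles of every gene overlap.

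Promoter sequence is shown for 5 genes on which the results below turn: Vamp8 and Vti1b, which had the highest levels, Ykt6 and Stx8, which had the smallest limma p-values between KO and intact cells in each direction, and Stxbp3, the only one of the 36 genes searched with a cAMP response element. The sequences are the 250 bases upstream of the RefSeq transcript start in GRCm38.p6, read 5′ to 3′ on the gene's strand, with the motifs searched on both strands in capitals. These were the GC box with the letters GGGCGG, the CCAAT box, the cAMP response element with the letters TGACGTCA and the TATA box with the letters TATAAA.
Vamp8, chr6:72390668-72390917, minus strand: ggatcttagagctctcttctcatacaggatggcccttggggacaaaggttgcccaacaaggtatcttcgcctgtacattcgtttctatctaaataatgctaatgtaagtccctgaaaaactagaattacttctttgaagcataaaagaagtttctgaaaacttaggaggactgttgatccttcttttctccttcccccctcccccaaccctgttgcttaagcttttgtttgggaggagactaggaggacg
Vti1b, chr12:79172459-79172708, minus strand: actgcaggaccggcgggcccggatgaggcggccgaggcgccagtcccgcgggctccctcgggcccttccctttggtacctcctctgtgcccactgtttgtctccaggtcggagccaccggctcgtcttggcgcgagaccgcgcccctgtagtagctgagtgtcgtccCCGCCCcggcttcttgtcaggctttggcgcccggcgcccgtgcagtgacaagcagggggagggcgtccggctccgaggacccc
Ykt6, chr11:5955508-5955757, plus strand: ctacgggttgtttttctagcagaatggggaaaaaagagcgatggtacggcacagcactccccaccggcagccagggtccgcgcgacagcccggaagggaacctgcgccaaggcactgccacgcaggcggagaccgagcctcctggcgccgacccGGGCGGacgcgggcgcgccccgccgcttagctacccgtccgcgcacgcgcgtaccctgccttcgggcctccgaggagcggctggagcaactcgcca
Stx8, chr11:67966208-67966457, plus strand: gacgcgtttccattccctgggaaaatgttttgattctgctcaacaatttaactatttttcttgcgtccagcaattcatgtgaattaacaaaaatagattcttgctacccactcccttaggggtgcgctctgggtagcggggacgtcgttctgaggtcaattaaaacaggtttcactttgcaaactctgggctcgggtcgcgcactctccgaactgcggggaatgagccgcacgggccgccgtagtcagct
Stxbp3, chr3:108840503-108840752, minus strand: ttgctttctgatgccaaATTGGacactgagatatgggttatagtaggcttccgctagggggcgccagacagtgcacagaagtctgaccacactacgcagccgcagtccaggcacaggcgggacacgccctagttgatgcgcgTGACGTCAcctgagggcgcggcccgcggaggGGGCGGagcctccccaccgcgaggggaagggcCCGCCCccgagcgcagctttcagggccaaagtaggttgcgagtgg
The Vamp8 window held none of the 4 motifs and had a GC content of 43.6%, against 71.6% for Vti1b and 70.0% for Ykt6, each with 1 GC box. Stx8 also held none. Promoters were found for 36 of the genes (45 promoters). A GC box stood in 57.8% of these 45 promoters and in 32.7% of all 32851 promoters of the table, and a CCAAT box in 40.0% against 33.8%. The TATA box stood in 4.44%, in Stx2 and Stx3, against 12.4%, and the cAMP response element in 2.22%, in Stxbp3, against 1.55%. A match of letters is not a binding site.

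Of the syntaxins that act at the plasma membrane, Stx4a (basolateral in most epithelia), Stx3 (the apical syntaxin) and Stx2 shared the level almost evenly. They held 33.0%, 31.7% and 31.1% of the summed TPM of this group in intact cells, and Stx1a, the neuronal form, held 4.27%. Stx3 was 47.9, 43.7, 43.4, 42.4 and 39.6 TPM in intact samples and 55.2, 53.0, 40.2, 46.3 and 42.6 in KO clones. KO 1 and KO 2 lay above every intact sample and the other KO clones among them (log2 ratio of KO to intact 0.12, standard error 0.09, limma adjusted p = 0.82; 0.063 without KO 1 and 0.078 without KO 2). Log2 ratios are differences of mean log2(TPM + 1), and p-values were adjusted over the 20000 genes tested. Stx4a was 51.9, 46.2, 45.4, 42.9 and 39.1 TPM in intact samples and 37.5, 47.4, 36.0, 49.9 and 36.2 in KO clones. Here KO 1, KO 3 and KO 5 lay below every intact sample and KO 2 and KO 4 within their range (log2 ratio -0.13, standard error 0.11, adjusted p = 0.82). It was -0.078 without the parental sample, -0.083 without KO 3, -0.085 without KO 5 and -0.20 without KO 4. Stx2 ranged from 35.8 to 50.6 TPM in intact samples and from 39.1 to 57.2 in KO clones.

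The SNAP-25 family was led by Snap47, an atypical member found mainly on intracellular membranes, which held 67.0% of the family's TPM in intact cells. Snap23, the broadly expressed form that stands in for SNAP-25 outside neurons, held 21.6%, and Snap29, which acts in autophagosome and endosome fusion, held 11.4%. Snap47 was 158, 156, 162, 160.0 and 162 TPM in intact samples and 179, 160.5, 167, 167 and 162 in KO clones. The KO values sat slightly higher and overlapped the intact ones (log2 ratio 0.06, adjusted p = 0.76). Snap23 was 51.5 ± 1.69 TPM in intact samples and 51.2 ± 3.25 in KO clones (SD, n = 5 each), with a 95% interval of the log2 ratio from -0.12 to 0.10.

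Among the 6 VAMPs with a row, Vamp7 not being one of them, Vamp8 held 72.8% of the summed TPM in intact cells (71.7% to 73.9% over samples) and 72.2% in KO clones (71.1% to 73.1%). Vamp8 was 414, 449, 425, 441 and 436 TPM in intact samples and 439, 361, 418, 379 and 407 in KO clones. KO 2, KO 4 and KO 5 lay below the lowest intact sample, and KO 1 and KO 3 within the intact range (log2 ratio -0.11, standard error 0.06, adjusted p = 0.75). Vamp2 and Vamp3, vesicle SNAREs of the plasma membrane and recycling routes, stood at 51.4 ± 2.99 and 48.0 ± 2.16 TPM in intact samples (SD, n = 5). Vamp2 spread from 43.1 (KO 2) to 63.7 (KO 1) over the KO clones, past the intact range on both sides. Vamp3 was 47.4, 41.1, 45.0, 43.1 and 47.7 TPM in KO clones, 3 of them below every intact sample (45.2 to 50.2; log2 ratio -0.10, adjusted p = 0.76). Vamp5, known from muscle, was the lowest relative to intact cells: it had 12.9 to 18.7 TPM in intact and 11.5 to 15.4 in KO samples, with a KO mean of 86.5% of the intact mean (log2 ratio -0.19, 95% interval -0.43 to 0.04, adjusted p = 0.76). Vamp1 was near 4 TPM in both groups (3.77 to 4.49 and 4.03 to 4.88).

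**Figure D2:**
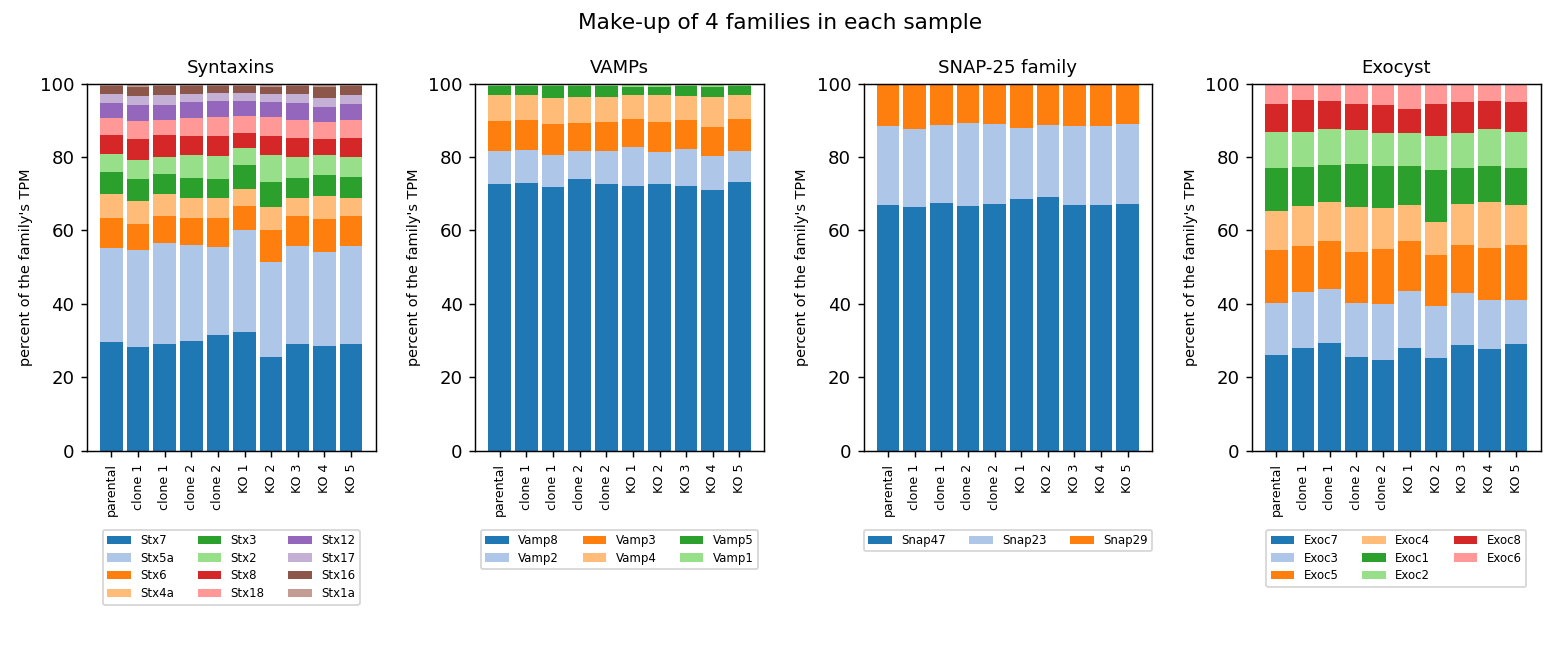
Share of each gene in the summed TPM of the listed genes of its family that have a row (percent), for syntaxins, VAMPs (6 genes, without Vamp7), the SNAP-25 family and the exocyst, with 1 bar for each intact sample (parental, clone 1, clone 2) and each KO clone. Vamp8 fills 71.1% to 73.9% of every VAMP bar and Snap47 66.5% to 69.0% of every SNAP-25 family bar.

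The SNAREs of late endosomes included the most abundant genes of the set. Stx7, Stx8, Vti1b and Vamp8, which form the complex of homotypic late endosome fusion, summed to 1006 ± 17.2 TPM in intact samples and 959.7 ± 66.5 TPM in KO clones (SD, n = 5 each). Their levels were unequal: Stx8 supplied 4.13% of the sum, against 22.7% for Stx7, 30.1% for Vti1b and 43.1% for Vamp8. Stx7 was 208 to 239 TPM in intact and 199 to 274 in KO samples, the highest being KO 1. Vti1b was 290.3 to 318 TPM in intact samples, and 4 of the KO clones lay between 288 and 292 with KO 1 at 319. Of the 50-base windows of transcripts, 86.2% of those of Vti1b and 70.4% of those of Stx18 occurred in no other gene, so the values of Vti1b and Stx18 depend on how shared reads were divided. For the other 38 genes at least 90% of windows were unique.

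Stx8 had the smallest limma p-value of the set. It was 40.6, 41.8, 44.7, 40.1 and 40.5 TPM in intact samples and 36.2, 40.9, 36.8, 34.8 and 37.9 in KO clones. The KO clones other than KO 2 lay below every intact sample, and KO 2 lay among them, so the groups overlapped by 1 clone. The mean in KO clones was 89.8% of the intact mean (log2 ratio -0.15, standard error 0.05, limma adjusted p = 0.619). The exact permutation p was 0.0317 over samples and 0.107 over cell lines. Without KO 2, or with the samples rescaled by their median ratios, the groups did not overlap (as for 2.83% and 1.45% of all genes tested).

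Among the SNAREs of the Golgi and the early secretory route, Stx5a, the Golgi syntaxin of ER-to-Golgi traffic, was the highest (179 to 213 TPM in intact and 196 to 236 in KO samples). Stx6 of the trans-Golgi network averaged 58.1 TPM in intact samples and 63.2 in KO clones (log2 ratio 0.12, adjusted p = 0.77). Stx12, an endosomal syntaxin, was 31.1 to 33.6 TPM in intact and 32.4 to 34.6 in KO samples. Stx16, Stx17 and Stx18 of the trans-Golgi network, autophagosomes and ER averaged 16.9, 18.5 and 36.7 TPM in intact samples. Vamp4, the trans-Golgi partner of Stx6 and Stx16, was 40.4, 42.1, 43.1, 42.4 and 41.5 TPM in intact samples and 38.3, 35.9, 39.3, 42.3 and 36.8 in KO clones. Every KO clone except KO 4 lay below the lowest intact sample (log2 ratio -0.12, standard error 0.05, limma adjusted p = 0.683). The exact permutation p was 0.0317 over samples and 0.107 over cell lines. Without KO 4 the groups did not overlap (as for 2.51% of all genes tested).

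Ykt6, a lipid-anchored SNARE of Golgi, endosome and autophagosome fusion, had the largest ratio of the set. It was 70.4, 50.1, 47.8, 66.3 and 68.7 TPM in intact samples and 73.0, 75.9, 73.9, 69.6 and 70.3 in KO clones. Both samples of intact clone 1 lay far below all others, while the parental line and intact clone 2 (66.3 to 70.4 TPM) lay beside the KO clones (69.6 to 75.9). The KO mean was 119.6% of the intact mean (log2 ratio 0.27, standard error 0.11, limma adjusted p = 0.671). The exact permutation p was 0.0238 over samples and 0.107 over cell lines. Without both samples of intact clone 1, a choice made after these values were seen, the log2 ratio was 0.08 (adjusted p = 0.927, beside 0.542 to 1.0 over all alternatives). Without the parental sample the groups did not overlap (as for 3.29% of all genes tested).

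Of the regulators, Stxbp2 (Munc18-2), the SM protein of apical and granule exocytosis, held 68.6% of the TPM of the 3 Stxbp genes in intact cells. It was 232, 239, 226, 235 and 230.5 TPM in intact samples and 176, 242, 238, 226 and 224 in KO clones. KO 1 alone lay far below the others, and without it the log2 ratio went from -0.08 to 0.00081. Stxbp3 (Munc18c), the partner of syntaxin 4, was 83.2 to 89.5 TPM in intact and 84.7 to 87.7 in KO samples other than KO 2, which had 71.3 TPM. Stxbp5 (tomosyn), an inhibitor of SNARE assembly, was 20.1 ± 1.67 TPM in intact samples and 20.3 ± 0.96 in KO clones (SD, n = 5 each). In the disassembly machinery, Napa (alpha-SNAP) held 85.3% of the TPM of the 3 SNAP adaptors in intact cells. Napa had the narrowest spread of the set, from 140.1 to 152 TPM over all 10 samples. Nsf averaged 50.8 TPM in intact samples and 50.6 in KO clones, with KO 4 highest (60.9) and KO 1 lowest (43.0).

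All 8 exocyst subunits were expressed, at unequal levels. Exoc7 (Exo70), which binds the plasma membrane, held 26.7% of their summed TPM in intact cells and Exoc6 5.13%. Exoc7 was 90.3, 98.9, 107, 91.9 and 83.6 TPM in intact samples and 100.1, 89.4, 101, 101 and 102 in KO clones. The KO clones other than KO 2 lay between 100.1 and 102 TPM, inside the intact range (log2 ratio 0.07, adjusted p = 0.83; 0.027 without the second sample of clone 2, 0.11 without the second of clone 1 and 0.10 without KO 2). Exoc3 averaged 52.2 TPM in intact samples and 49.2 in KO clones, with KO 5 lowest at 41.9 (log2 ratio -0.09, adjusted p = 0.82; -0.034 without KO 5). Exoc6 was 15.6 to 19.5 TPM in intact and 17.5 to 24.8 in KO samples, the highest being KO 1. Exoc1, Exoc2, Exoc4, Exoc5 and Exoc8 averaged 27.7 to 48.4 TPM in intact and 27.7 to 49.6 in KO samples.

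The comparison of KO with intact cells asks whether loss of Camk2d, a calcium/calmodulin-dependent kinase, goes with a change in these transcripts. None of the 39 genes tested passed an adjusted p of 0.05 with limma, which called 0.005% of the 20000 genes tested (1 gene, Camk2d). At an unadjusted p under 0.05 there were 3, Ykt6 higher and Stx8 and Vamp4 lower in KO clones, which is 3 of 39 beside 6.99% of all genes tested. By the two-sided exact permutation test, 5 genes had p under 0.05 over the samples: Ykt6 (p = 0.0238), Stx8 (p = 0.0317), Vamp4 (p = 0.0317), Snap47 (p = 0.0397) and Stx12 (p = 0.0476), beside 7.15% of all genes tested. Over the 8 cell lines none did, beside 3.46% of all genes tested, where the smallest p the design allows is 0.0357. In the whole set the log2 ratio was above 0 for 19 genes and below 0 for 20. Their median log2 ratio was -0.0023, beside 0.0188 over all genes tested. The median size of the ratio was 0.056 beside 0.078, without matching for level. No gene of the set had KO and intact samples that did not overlap, beside 1.64% of all genes tested. The p-values measure the spread between these samples, and the 5 intact samples stand for 3 lines.

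**Figure D3:**
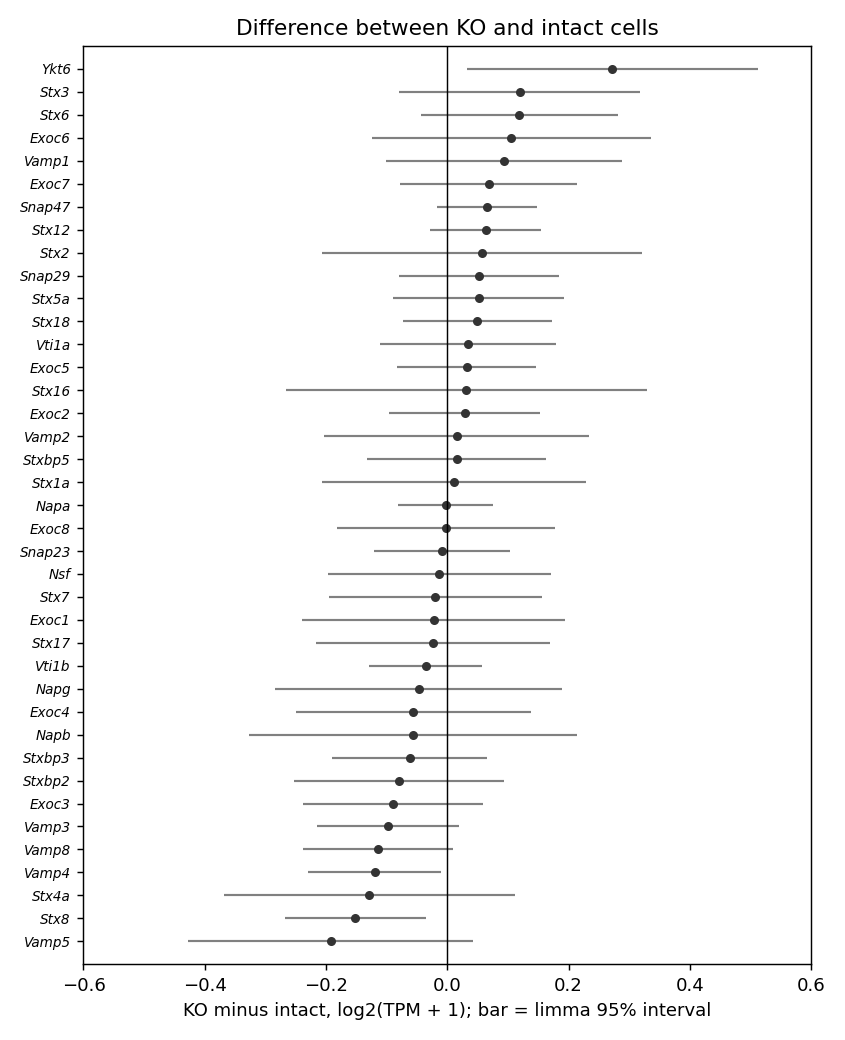
Difference between KO and intact means on log2(TPM + 1) for the 39 genes tested, with the 95% limma interval (unadjusted) as a bar. The points run from -0.19 (Vamp5) to 0.27 (Ykt6), and the bars of Ykt6, Stx8 and Vamp4 alone lie clear of 0.

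For 38 of the 39 genes the 95% interval lay within 0.5 of 0 on the log2 scale, which held for 79.9% of all genes tested. The exception was Ykt6, whose upper bound was 0.51. These intervals count the samples of an intact clone as independent, and the share over all genes was not matched for level. With 1 value per cell line all 39 lay within 0.5 (74.7% of all genes tested), as they did with a random effect for line (74.1%). KO means lay between 86.5% and 119.6% of the intact means. The intervals of the genes tied to AQP2-bearing vesicles were -0.20 to 0.23 for Vamp2, -0.22 to 0.02 for Vamp3, -0.24 to 0.01 for Vamp8, -0.08 to 0.32 for Stx3 and -0.37 to 0.11 for Stx4a. They were -0.12 to 0.10 for Snap23, -0.25 to 0.09 for Stxbp2, -0.20 to 0.17 for Nsf and -0.08 to 0.08 for Napa. Aqp2 itself was 4318 ± 696 TPM in intact samples and 2485 ± 1020 TPM in KO clones (SD, n = 5 each), or -0.89 on the log2 scale (limma adjusted p = 0.565). None of these 9 genes had a ratio of that size.

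Levels varied little from sample to sample. The highest of the 10 samples was 1.08 times (Napa) to 1.77 times (Stx16) the lowest, with a median of 1.32, and was under 1.5 times for 32 of the 39 genes. The median SD of log2(TPM + 1) was 0.085 in intact samples and 0.12 in KO clones, beside 0.11 and 0.16 for the 13047 genes of at least 1 TPM. Most genes of the set averaged at least 10 TPM, and genes of like level were not compared. The SD was larger among KO clones for 29 of the 39 genes (74.4%), and the same held for 71.1% of those 13047 genes. The KO samples are 5 lines, while the intact samples are 3 lines with both intact clones sampled in pairs. Spreads, and the counts of single far samples that follow, are therefore not like for like between the groups. A single KO clone stood far from the other 4 for 10 of the 39 genes (25.6%; Dixon's test, 14.6% of all genes tested), and a single intact sample for 1 gene, Stx1a (2.56%; 8.92% of all genes tested). KO 1 held 4 of these values, KO 2 held 5 and KO 4 held 1. KO 1 was the highest of all 10 samples for 12 genes of the set (30.8%, beside 17.5% of the genes of at least 1 TPM) and KO 2 the lowest for 12 (30.8%, beside 17.7%). In the other direction, KO 1 was the lowest for 3 genes of the set (7.69%, beside 15.9%) and KO 2 the highest for 5 (12.8%, beside 29.2%). Among the intact samples, the second sample of clone 1 was the highest of the 10 for 8 genes (20.5%, beside 7.25%). It was also the lowest for 6 (15.4%, beside 9.8%), and the second sample of clone 2 was the lowest for 7 (17.9%, beside 12.5%). Leaving out KO 1 and KO 2, the clones made with the exon 8 guide, was a choice made after seeing these values. Stx8 and Exoc1 then no longer overlapped between the groups (5.13% of the set, beside 5.54% of all genes tested).

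**Figure D4:**
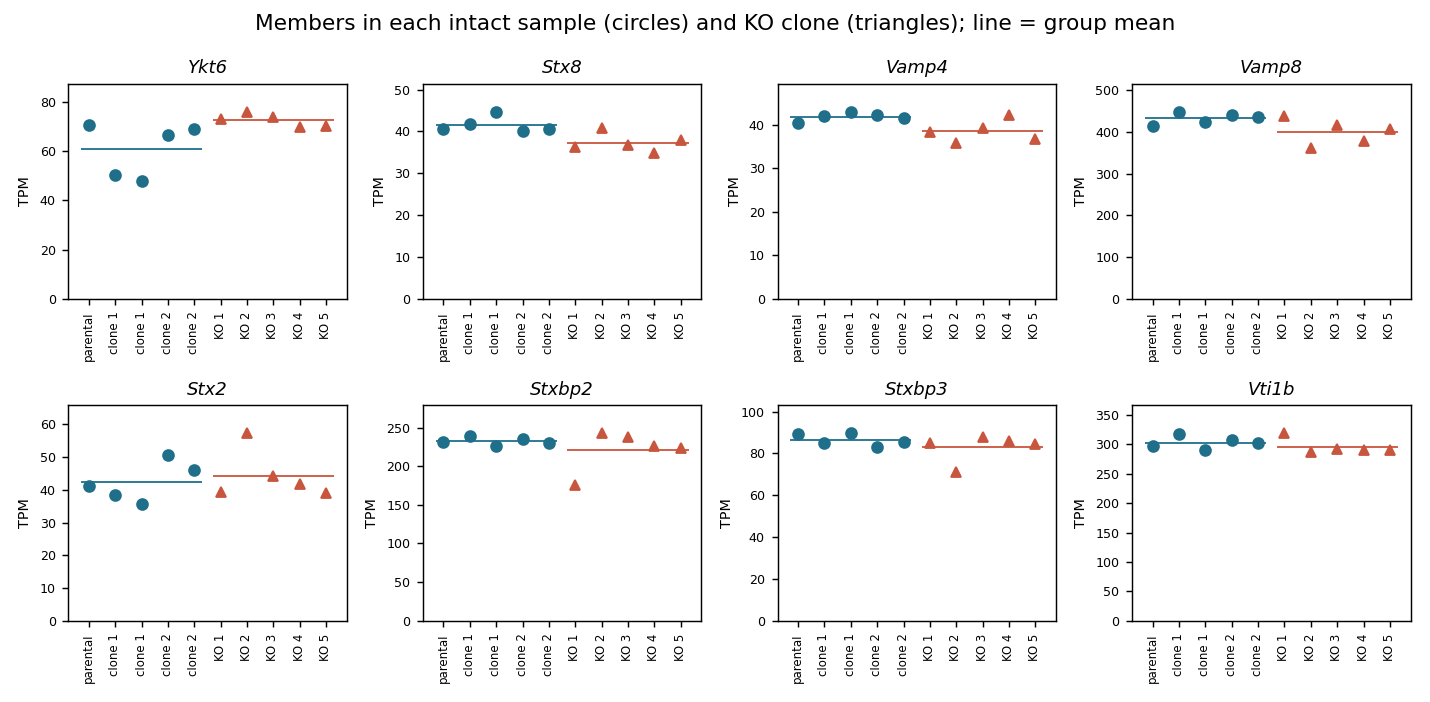
TPM of 8 genes in each intact sample (circles: parental line, clone 1, clone 2) and each KO clone (triangles), with the group mean as a line. Ykt6 is low in both samples of intact clone 1 only, Stxbp2 is low in KO 1 (176 TPM), and Stx2 is high (57.2 TPM) and Stxbp3 low (71.3 TPM) in KO 2.

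Both intact clones kept Camk2d, and they were compared to give the difference between lines without its loss. Ykt6 was 49.0 TPM on average in intact clone 1 and 67.5 in intact clone 2, with a log2 ratio of 0.46 ± 0.04 (standard error) and an adjusted p of 0.0955 by limma. Stx2 averaged 37.1 TPM in clone 1 and 48.4 in clone 2 (log2 ratio 0.37), and Exoc6 16.2 and 19.4 (0.24). Exoc7 was lower in clone 2, at 87.8 TPM against 103 (-0.23), as were Napb, at 3.25 against 4.28 (-0.31), and Stx16 (values of 16.3 and 13.8 against 17.4 and 19.3). No gene of the set passed an adjusted p of 0.05 with limma, and 0% of all 20000 genes did. This count depends on the fit: Ykt6 passed when genes under a mean of 1 TPM were left out (adjusted p = 0.0437) or when the spread came from all 10 samples (adjusted p = 0.0495), and over all alternatives its adjusted p lay between 0.0437 and 0.317. At an unadjusted p under 0.05 there were 6 of 39, Ykt6, Stx2, Exoc6 and Exoc5 higher and Vamp3 and Exoc7 lower in clone 2, beside 17% of all genes tested. The samples of both clones did not overlap for 25 of the 39 genes (64.1%, beside 44.2% of all genes tested). Such small groups often separate by chance. The genes tested reach down to a mean of 0.049 TPM, and no share was taken at the level of the set. With 2 samples per clone, the spread is that within a clone. The sources used here do not say whether these were separate cultures, so it may be technical.

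Other genes of the fusion machinery, taken from lists, all had an adjusted limma p above 0.05. The counts at an unadjusted p under 0.05 given for these lists stand beside 6.99% of all genes tested. Of the 12 other SNAREs with a row, 11 were tested and none had an unadjusted limma p under 0.05; the smallest p of those lower in KO clones was that of Use1 (107 TPM in intact samples, 101 in KO clones, log2 ratio -0.09) and of those higher that of Gosr2 (108 and 112, 0.06). Of 13 SM proteins and other SNARE regulators tested, Scfd2, a Sec1/Munc18 family protein, had an unadjusted p under 0.05 (17.2 ± 1.12 TPM in intact samples and 19.8 ± 1.63 in KO clones, SD, n = 5 each, log2 ratio 0.20, limma adjusted p = 0.641). The smallest p among those lower in KO clones was that of Snapin, a SNARE-binding protein (165 and 153 TPM). Of the 38 synaptotagmins, complexins, Munc13s and other calcium sensors and priming factors, 10 averaged at least 1 TPM and 9 were listed at 0 in every sample, and none of the 14 tested had p under 0.05. Esyt1 had the smallest p of those higher in KO clones (53.9 and 57.7 TPM) and Unc13a of those lower (1.78 and 1.48 TPM). Of the 13 exocyst relatives and partners tested (Ral and Rab GTPases among them) and the 31 genes listed as other tethering factors, none had p under 0.05. Exoc3l4 (49.8 and 54.4 TPM) and Cdc42 (346 and 328 TPM) had the smallest p of the former, and Vps11 (54.8 and 62.0 TPM) and Gcc2 (70.7 and 63.9 TPM) of the latter.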

How the data were processed

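Transcripts were measured by RNA-seq in 5 Camk2d-intact samples (3 lines) and 5 Camk2d KO clones of mpkCCD cells. The TPM values deposited by the authors came from full-length cDNA libraries, STAR alignment to an Ensembl mouse genome and RSEM. The kit does not mark strand, so antisense reads cannot be told apart. As the values used were TPM, the authors' edgeR test on expected counts was replaced by limma 3.58.1 (R 4.3.3, eBayes with a trend on intensity) on log2(TPM + 1), which understates the change of low genes, over the 20000 genes with the highest mean TPM, with Benjamini-Hochberg adjustment. The limma fit was tested on simulated data with independent samples, no shared lines and changes larger than any ratio of the set. Intact clones were compared in a fit of the 5 intact samples by line (2 residual degrees of freedom). Exact permutation tests ran over 252 arrangements of samples (smallest two-sided p 0.00794) or 56 of lines. Shared 50-base windows were counted in GENCODE M21, and promoters were read from RefSeq. Python 3.11.15, pandas 2.3.3, numpy 2.4.6, scipy 1.17.1 and matplotlib 3.10.9 were used.

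The genes and lists were chosen with earlier results of these data known. Values were given for the 10 highest genes, any under 1 TPM in intact cells, the 8 with the smallest p in each direction, any without overlap, the 6 with the largest difference between intact clones, 9 genes tied to AQP2 vesicles and, in other lists, the smallest p in each direction. Alternatives were pseudocounts of 0.1 and 0.5, other filters on low values, median-ratio and quantile scaling, robust moderation, no trend, the line as a random effect (statmod 1.5.0), lines averaged to 1 value, the spread of all 10 samples for the clones, and leaving out each sample.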

Additional observations from a re-analysis of the deposited data

Results flagged for a closer look

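For 11 genes of the set, 1 sample stood far from the other 4 of its group by Dixon's test at the 95% level, which chance alone meets in about 1 in 20 groups. The test was met by 14.6% of all genes tested in KO clones and by 8.92% in intact samples. In KO 1, Stxbp2 was low (176 TPM), and Stx5a (236 TPM), Vti1b (319 TPM) and Vti1a (50.5 TPM) were high. In KO 2, Exoc7 (89.4 TPM), Stxbp3 (71.3 TPM) and Stx17 (15.2 TPM) were low, and Stx2 (57.2 TPM) and Exoc1 (50.4 TPM) were high. In KO 4, Stx16 was high (24.4 TPM). Of the intact samples, the first of intact clone 1 was high in Stx1a (7.06 TPM). Each KO clone is a single library, so the clone and its library cannot be told apart. Paired samples of the same intact clone can hide each other in Dixon's test.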

How the results depend on the processing

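Over 22 other settings of KO against intact, no gene of the set passed an adjusted p of 0.05, and the smallest adjusted p among them was 0.329. The unadjusted count of 3 was 1 with 1 value per cell line (3.81% of all genes tested under that setting), 1 without both samples of intact clone 1 (5.49%; added after seeing the data), and 1 to 5 when single samples were left out (5.47% to 8.19%). All genes called went from 1 to 2 with a pseudocount of 0.1, and were 1 to 2 when single samples were left out. The count of genes without overlap between KO and intact samples (0) was 1 after rescaling by median ratios (1.45% of all genes tested), 0 to 1 when single samples were left out (2.17% to 3.29%), and 2 without KO 1 and KO 2 (5.54%; added after seeing the data). Between the intact clones, genes called at an adjusted p under 0.05 (0) were 249 among genes of at least 1 TPM, 11 without a trend, 183 with robust moderation and 28 with the spread of all 10 samples. In the set this count was 1 (Ykt6, adjusted p = 0.0437 and 0.0495) under the first and the last of these. The unadjusted count of 6 was 2 with the spread of all 10 samples (6.57% of all genes tested) and 3 to 6 when single samples were left out (14.0% to 14.5%). Of 594 alternative log2 ratios of named genes, 30 changed sign, in 12 genes, and 15 genes kept theirs throughout. Vamp2 was -0.013 after rescaling by median ratios and -0.016 after quantile normalization, where Stx16 was -0.011. Without both samples of intact clone 1, Napb was 0.018 and Stx2 -0.062. Without KO 1 and KO 2, Stx5a was -0.0020, Snap23 0.050, Stx2 -0.017, Nsf 0.077, Stx3 -0.011 and Exoc6 -0.016. When single samples were left out, the range was -0.019 to 0.010 for Napa, -0.081 to 0.042 for Nsf, -0.037 to 0.12 for Stx2, -0.057 to 0.082 for Vamp2, -0.026 to 0.029 for Snap23, -0.090 to 0.080 for Stx16, -0.11 to 0.00081 for Stxbp2, -0.091 to 0.023 for Stx7 and -0.12 to 0.0032 for Napb. Of genes that kept their sign with 1 sample left out, Exoc6 (0.021 to 0.14), Snap47 (0.041 to 0.079), Stx5a (0.0042 to 0.076), Stxbp3 (-0.083 to -0.0086) and Vti1b (-0.063 to -0.018) also moved by over 1.5 times. For these shifts the cause was not tested. No paired analysis was possible because the replicate numbers of intact and KO samples name no shared culture. The depth is unknown, so counting error could not be separated from the spread between samples.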
